A study of Mus musculus with 2 samples.

Results

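Cycling fibroblasts were examined among non-cardiomyocytes of the mouse infarct zone 7 days after myocardial infarction. They were defined by RNA counts: a cell counted as a fibroblast when the collagen transcripts Col1a1, Col1a2 and Col3a1 together made up at least 100 of every 10000 unique molecular identifiers (UMIs, each 1 captured RNA molecule), the macrophage transcripts C1qa, C1qb and C1qc fewer than 30, and fewer than 3 of 8 mesothelial genes (Msln, Upk3b, Upk1b, Lrrn4, Krt19, Krt8, Wt1 and Muc16) were detected. A fibroblast counted as cycling when Mki67, Top2a and Birc5 together had at least 3 UMIs, and as non-cycling when they had 0. This gave 308 cycling fibroblasts, 27 in the GFPhi and 281 in the GFPlo library, out of 6652 fibroblasts (337 GFPhi, 6315 GFPlo) and 22084 cells of sufficient quality (10125 GFPhi, 11959 GFPlo). The comparison set held 5869 non-cycling fibroblasts (274 GFPhi, 5595 GFPlo), and 475 fibroblasts (36 GFPhi, 439 GFPlo) with 1 or 2 UMIs of the 3 genes entered neither set.

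Both libraries came from p16-2A-CreER;R26-mTmG mice, in which a tamoxifen-dependent Cre recombinase is expressed from the p16 locus and a reporter switches from membrane tdTomato to membrane GFP after recombination. All animals had infarct surgery and received tamoxifen by mouth on day 5, and cells sorted by GFP level were sequenced on day 7, so neither library represents uninjured or untreated heart. The series is titled for the recruitment of cytotoxic lymphocytes through CCL8 by p16-positive cells. The labels give neither the number of mice behind a library nor their age or sex, and there was 1 library per group. No difference below therefore has a replicate check or a p-value, and the 95% intervals cover counting error within a library only, with cells treated as if they were independent.

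Fibroblasts of the healthy heart rarely divide. After an infarct they enter the cell cycle, migrate into the damaged wall, and many become contractile, smooth muscle actin-expressing myofibroblasts that lay down and tighten the scar. The cell cycle itself runs on large waves of transcription: genes for DNA synthesis, driven by E2F factors, come on at the G1/S boundary, and genes for chromosome condensation, spindle assembly and cytokinesis, kept silent in resting cells by the DREAM repressor complex, come on in G2 and M. Mki67 (chr7:135689784-135716361, minus strand, mm10) encodes a chromosome-coating protein of dividing cells, Top2a (chr11:98992943-99024189, minus strand) the topoisomerase that untangles replicated DNA, and Birc5 (chr11:117849251-117855743, plus strand) survivin, a subunit of the mitotic chromosomal passenger complex.

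The genes of the rule are given as a description, since they chose the cells. Mki67 had a UMI in 25 of 27 GFPhi and 248 of 281 GFPlo cycling fibroblasts, Top2a in 24 and 240, and Birc5 in 26 and 255. All 3 were detected together in 22 GFPhi and 196 GFPlo cells, and the median cell had 26 UMIs of the 3 genes in GFPhi and 14 in GFPlo, well inside the threshold of 3. At the edge of the rule, no GFPhi and 29 GFPlo cells had exactly 3 UMIs, while 5 GFPhi and 70 GFPlo fibroblasts had 2. The collagen sum was close in cycling and non-cycling cells, with medians of 204.3 and 206.6 per 10000 UMIs in GFPhi and 223.6 and 222.2 in GFPlo. Of fibroblast markers outside the rule, Dcn, the collagen-binding proteoglycan decorin, was detected after thinning each cell to 3000 UMIs in 96.3% of GFPhi and 96.4% of GFPlo cycling cells, against 6.41% and 43.5% of cells with collagen under 20 per 10000. Pdgfra, the platelet-derived growth factor receptor of fibroblasts, was detected in 18.5% and 21.9%, against 0.135% and 1.90% of those cells. Unthinned, the shares of Dcn were 96.3% and 99.3% against 13.9% and 59.1%, and those of Pdgfra 77.8% and 65.1% against 0.283% and 2.28%. Both markers were detected more often than in collagen-poor cells in both libraries.

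Depth and foreign RNA moved with these groups. Cycling fibroblasts held a median of 32466 UMIs in GFPhi and 16813 in GFPlo, against 15622.5 and 8452 in non-cycling fibroblasts, and a rule that asks for 3 UMIs is met more easily in a deeper cell. More RNA in a dividing cell and deeper sampling of it cannot be told apart here. Complement C1q transcripts of macrophages were present in all 27 GFPhi cycling fibroblasts, at a median of 1.234 per 10000 UMIs, whereas 98.9% of the GFPlo cycling fibroblasts had none. Macrophages made up most of the GFPhi library, with 7603 cells, and the libraries shared 94 barcodes, of which 0 belonged to cycling fibroblasts. Transcripts of a macrophage list reached 10 per 10000 UMIs in 7 of 27 GFPhi and 27 of 281 GFPlo cycling fibroblasts, and in 160 of 274 and 1890 of 5595 non-cycling ones. The summed level of that list ran from 3.43 to 101.9 per 10000 (median 5.92) in GFPhi and from 0 to 81.7 (median 0.957) in GFPlo cycling cells. Endothelial, mural or lymphocyte lists reached 10 per 10000 in 8, 8 and 4 GFPlo cycling cells and in none of GFPhi, and neutrophil, Schwann cell, cardiomyocyte and erythrocyte lists in none of either library. The GFPlo values for the macrophage list came largely from Apoe, an apolipoprotein that fibroblasts also express. An alternative used below left out cells at 10 per 10000 or more of the macrophage, endothelial, mural or lymphocyte list, as cells carrying RNA of other types. It kept 20 of 27 GFPhi and 242 of 281 GFPlo cycling cells, but 114 of 274 and 3642 of 5595 non-cycling ones. It can thus also leave out fibroblasts for their own Apoe. At 5000 to 20000 UMIs, the window used below to narrow the range of depth, GFPhi holds 6 cycling cells. Depth is not equal within it: 146 of the 170 GFPlo cycling cells lay at 10000 to under 20000 UMIs, against 2150 of all 5098 GFPlo fibroblasts.

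Cycling cells were a larger share of the fibroblasts in GFPhi than in GFPlo over all depths, but the order turned in deeper cells. The share was 8.01% in GFPhi (27 of 337, exact 95% interval 5.35 to 11.4) and 4.45% in GFPlo (281 of 6315, 3.95 to 4.99), a ratio of 1.80. After each cell was thinned to 3000 UMIs and called cycling at 1 UMI or more, the shares were 9.03% (29 of 321, 6.13 to 12.7) and 6.08% (360 of 5924, 5.48 to 6.72), a ratio of 1.49 with overlapping intervals. Among fibroblasts of 5000 to 20000 UMIs the shares were 3.32% (6 of 181) and 3.34% (170 of 5098). By depth band, GFPhi was lower in the deeper cells: at 10000 to under 20000 UMIs 5 of 138 cells cycled (3.62%) against 146 of 2150 in GFPlo (6.79%), and at 20000 UMIs or more 21 of 129 (16.3%, 10.4 to 23.8) against 103 of 333 (30.9%, 26 to 36.2). Under 10000 UMIs the shares were 1.43% (1 of 70) and 0.835% (32 of 3832). The higher share of GFPhi over all cells was therefore not present in the 2 deeper bands. Fibroblasts of 20000 UMIs or more were 129 of 337 in GFPhi and 333 of 6315 in GFPlo. Under the same rule of 3 UMIs, macrophages cycled at 6.56% in GFPhi (499 of 7603) and 13.0% in GFPlo (7 of 54), and mesothelial cells, the lining of the heart surface, at 10.1% (49 of 485) and 11.8% (174 of 1473). Thinned, the GFPhi macrophage share was 12.8%, above the 9.03% of GFPhi fibroblasts rather than below it, and the mesothelial shares were 9.03% and 12.6%.

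**Figure D1:**
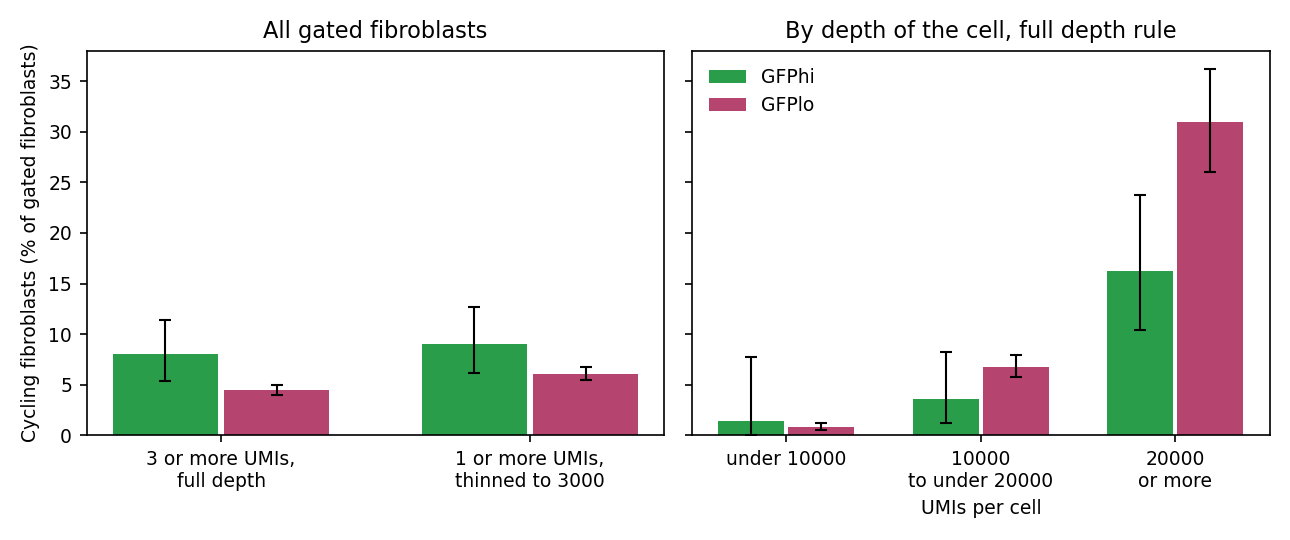
Percent of gated fibroblasts called cycling in the GFPhi (green) and GFPlo (red) libraries, with exact 95% intervals that cover counting error only; the left panel shows all fibroblasts at full depth and after thinning to 3000 UMIs, and the right panel shows bands of UMIs per cell. GFPhi is higher over all cells (8.01% against 4.45%) and lower among cells of 20000 UMIs or more (16.3% against 30.9%).

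Most cycling fibroblasts had more transcripts of the G2/M than of the G1/S program. Each cell's UMIs were summed over a G1/S and replication list and over a G2/M and mitosis list, both without the rule's genes. The G2/M sum was above the G1/S sum in 22 of 27 GFPhi and 233 of 281 GFPlo cells, and below it in 5 and 45. The lists differ in size and base level, and the G2/M sum was also the larger in 177 of 274 GFPhi (64.6%) and 3278 of 5595 GFPlo (58.6%) non-cycling cells, against 81.5% and 82.9% of cycling cells. In GFPlo the median cell had 68.92 UMIs of the G2/M list and 17.58 of the G1/S list per 10000, against 4.38 and 2.933 in non-cycling cells. In GFPhi the corresponding medians were 69.73 and 16.31, against 4.56 and 2.964. The rule itself favours this phase, since its 3 genes peak in G2/M, and cells early in S phase can fall among the 475 that it left aside: GFPlo fibroblasts with 2 UMIs of the rule's genes had a median G2/M sum of 10.51 per 10000, and those with 3 UMIs 22.14. Single genes of the kind the lists hold describe this split and do not test it. In the 45 GFPlo cells with more G1/S transcripts, Ccne2, the cyclin that opens S phase, stood at 73.7 counts per 1000000 UMIs (CPM) and Mcm5, a subunit of the replicative helicase, at 80.3 CPM, against 21.8 and 25 CPM in the 233 cells with more G2/M transcripts. Ccnb1, the cyclin of mitotic entry, was at 5.3 CPM in the first and 116.7 CPM in the second. In GFPhi, with 5 and 22 cells, Mcm5 and Ccnb1 had the same order, and Ccne2 was at 18.1 CPM on 3 UMIs against 20.3 CPM. Ccnd1, the cyclin induced by growth factors, was at 190.9 CPM in the G1/S cells and 87.2 CPM in the G2/M cells of GFPlo. The order was opposite in GFPhi, at 66.2 and 110.8 CPM, but the G1/S side held 11 UMIs of Ccnd1. A single cell held 35.5% of the Ccnd1 UMIs of GFPhi cycling cells, so that order leans on few cells.

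**Figure D2:**
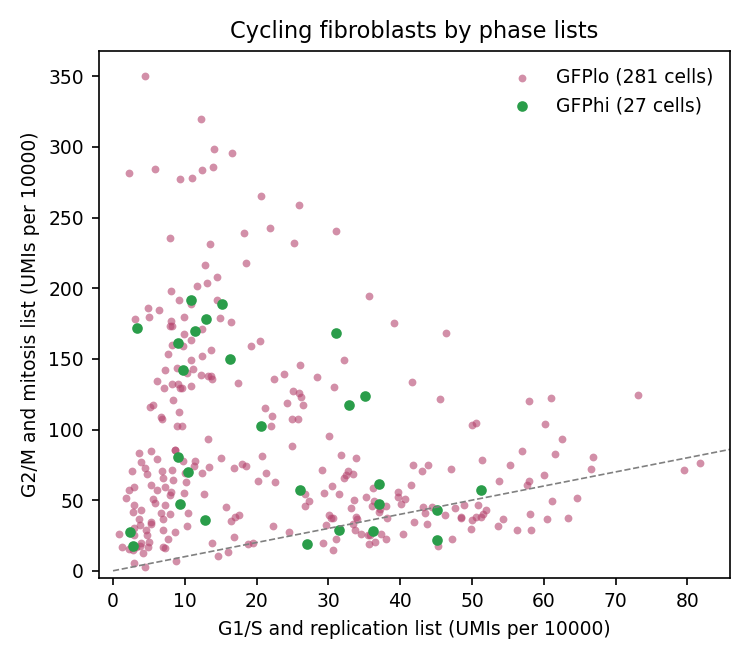
Each point is 1 of the 308 cycling fibroblasts (GFPhi green, GFPlo red), placed by its UMIs of the G1/S and replication list (x) and of the G2/M and mitosis list (y), both per 10000 UMIs; the dashed line marks equal sums. Of the GFPlo cells 233 lie above the line and 45 below, and of the GFPhi cells 22 above and 5 below.

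Across all genes, RNA counts summed over the cycling cells of a library were compared with the sum over its non-cycling cells, as a ratio of CPM; a gene at 10 CPM or more in either set was tested against a 1.5-fold limit and counted as higher or lower when past it. In GFPlo 1352 of 8716 genes were higher (15.5%) and 986 lower (11.3%), and in GFPhi 1617 of 8579 were higher (18.8%) and 1241 lower (14.5%). The 2 libraries shared 930 higher genes (11.2% of the 8275 tested in both) and 555 lower ones (6.71%). The median log2 ratio over all genes was 0.05 in either library. Because the rule's genes rise with the cell cycle, ratios of other cell cycle genes describe the cells so chosen and do not test the choice.

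Of the lists other than markers of other cell types, the G2/M list had the highest median ratio in both libraries. All 59 measured members of the G2/M and mitosis list in GFPlo and all 61 in GFPhi were past 1.5-fold, beside backgrounds of 15.5% and 18.8%, with median log2 ratios of 6.19 and 6.04. In GFPhi 7 of these genes had no UMI in non-cycling cells, and with those genes at their lower limits the GFPhi median was 5.76. Hmmr (chr11:40701395-40733422, minus strand), a spindle-binding hyaluronan receptor, stood at 129.8 CPM in cycling and 0.331 CPM in non-cycling GFPlo fibroblasts, a 392-fold ratio (243 to 677). In GFPhi it was at 140.1 CPM and without any UMI in non-cycling cells, at least 222.5-fold higher. Ube2c (chr2:164769898-164778822, plus strand), the ubiquitin-conjugating enzyme of the anaphase-promoting complex, was the most abundant of the named mitotic genes at 500.2 CPM against 2.61 in GFPlo (192-fold, 161 to 230) and 696.2 against 1.89 in GFPhi (368-fold). Cdc20, which activates that complex at the onset of anaphase, was 98-fold higher in GFPlo and 184-fold in GFPhi.

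The other mitotic genes named ranged from entry into mitosis to the parting of the daughter cells. Cenpf and Cenpe, proteins of the outer kinetochore that grips spindle microtubules, were 197-fold and 192-fold higher in GFPlo. Plk1, the polo-like kinase of mitotic entry, was 201-fold higher in GFPlo, at 70.3 against 0.35 CPM, and 420-fold in GFPhi on a single-digit number of non-cycling UMIs. Cep55, which acts at the midbody when daughter cells part, was 307-fold higher in GFPlo and 284-fold in GFPhi. Ccna2, the cyclin of S and G2 phases, was at 163.5 against 0.682 CPM in GFPlo (240-fold) and 166.6 against 0.63 CPM in GFPhi (265-fold). Ccnb1 was 130-fold and 208-fold higher. Cdk1, the kinase that these cyclins activate, was more abundant in non-cycling cells and had a smaller ratio, at 361 against 13.5 CPM in GFPlo (26.8-fold) and 31.4-fold in GFPhi. Pbk, a mitotic kinase, was 236-fold higher in GFPlo, Pimreg, a regulator of the metaphase to anaphase transition, 279-fold, and Ckap2l, a spindle protein, 164-fold. The GFPhi ratios of these genes rest on few non-cycling UMIs and have wide intervals.

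Motifs by which these waves are usually told apart were searched in the promoters, and 4 promoters are shown because between them they hold each kind of motif searched, for genes from spindle to replication fork. The sequences are the 120 bases upstream of the annotated start, from RefSeq (GRCm38.p6), written 5′ to 3′ on the strand of the gene. Capitals mark matches on either strand to CCAAT (read ATTGG on the other strand), to the cell cycle genes homology region or CHR (TTTGAA or TTCGAA, read TTCAAA or TTCGAA), and to an E2F site (TTTCCCGC, TTTGGCGC, TTTCGCGC or TTTGCCGC). The windows are chr4:118437344-118437463 (minus strand) for Cdc20, chr2:164769809-164769928 (plus) for Ube2c, chr11:40733438-40733557 (minus) for Hmmr and chr1:128359706-128359825 (minus) for Mcm6, a subunit of the replicative helicase.
Cdc20: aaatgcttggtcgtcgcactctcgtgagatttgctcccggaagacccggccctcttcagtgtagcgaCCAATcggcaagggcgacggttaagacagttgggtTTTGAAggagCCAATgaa
Ube2c: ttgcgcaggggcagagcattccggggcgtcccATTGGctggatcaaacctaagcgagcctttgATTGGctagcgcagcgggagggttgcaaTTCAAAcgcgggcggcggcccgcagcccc
Hmmr: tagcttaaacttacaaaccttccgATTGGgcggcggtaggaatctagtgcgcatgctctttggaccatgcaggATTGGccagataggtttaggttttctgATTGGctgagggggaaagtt
Mcm6: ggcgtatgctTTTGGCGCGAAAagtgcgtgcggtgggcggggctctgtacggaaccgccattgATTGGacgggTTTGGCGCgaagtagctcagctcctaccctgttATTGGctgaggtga
Cdc20 holds a CHR between CCAAT boxes, Ube2c a CHR downstream of CCAAT boxes, Hmmr CCAAT boxes alone in this stretch, and Mcm6 E2F letters beside CCAAT boxes. They were chosen after their motifs were seen: of the 11 stretches of this length read, the 7 not shown (Ccnb1, Plk1, Cenpe, Mcm5, Rrm2, Pclaf and Mcm3) hold CCAAT and neither a CHR nor an E2F match.

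Over whole promoter windows of 300 bases (250 before and 50 after the start), a CHR match was present in 41 of the 53 matched promoters of the G2/M list (77.4%), in 6 of 35 of the G1/S list (17.1%), and in 19.4% of all 27025 promoters of the table. Of the 166 genes at least 10-fold higher in both libraries, 123 had a promoter in the table, and 72 of those (58.5%) held a CHR. The share was 19.8% (120 of 607) among the 764 genes higher in both libraries by a smaller ratio, 11.9% (50 of 419) among the lower genes, and 13.8% (910 of 6584) among all tested genes. E2F letters were instead most frequent in the G1/S list, at 37.1% (13 of 35), against 9.43% in the G2/M list and 2.32% in all promoters. CCAAT was common in both lists, at 71.7% for G2/M and 60% for G1/S, against 37.9% of all promoters. Both a CHR and a CCAAT were present in 64.2% of the G2/M promoters and 7.70% of all promoters. A match is a run of letters and not a measured binding event.

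Genes of the G1/S and replication list were higher by smaller ratios. All 42 measured members of the G1/S and replication list in GFPlo and all 40 in GFPhi were past 1.5-fold, with median log2 ratios of 3.09 and 3. Pclaf, a PCNA-associated factor of replication and repair outside that list, had a larger ratio, at 435.2 against 2.79 CPM in GFPlo (156-fold) and 452.3 against 2.73 CPM in GFPhi (166-fold). Tk1, the S phase thymidine kinase, was 64.6-fold and 78.8-fold higher. Clspn, a fork checkpoint adaptor, was 38.3-fold higher in GFPlo and 45.8-fold in GFPhi, and Rrm2, the inducible subunit of ribonucleotide reductase, 25-fold and 43.8-fold. Pcna, the sliding clamp, and Mcm6 had smaller ratios and were well detected in non-cycling fibroblasts too. Pcna was at 188.2 CPM in cycling and 38.5 CPM in non-cycling GFPlo cells, a 4.88-fold ratio against 4.79-fold in GFPhi. Mcm6 was 4.46-fold and 4.56-fold higher. E2f8, an atypical E2F repressor that is itself an E2F target, was 65.2-fold and 89.3-fold higher.

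Histone and repair genes followed. Of 11 measured histone genes all 11 were higher in GFPlo and 10 in GFPhi, with median log2 ratios of 3.20 and 3.45. Hist1h3c, a replication-dependent H3, was 186-fold higher in GFPlo and 89.3-fold in GFPhi, and Hist1h1b, a linker histone, 140-fold and 136-fold. H2afz, the variant H2A.Z, was abundant in both sets, at 1548 against 216 CPM in GFPlo, and 7.17-fold and 7.47-fold higher. The linker histone Hist1h1c was 1.85-fold higher in GFPlo and had a ratio of 0.976 in GFPhi. All 15 DNA repair genes in GFPlo and all 12 in GFPhi were past 1.5-fold, with medians of 2.92 and 1.61. Brca1, which acts in repair by homologous recombination, was 38.9-fold higher in GFPlo and 78.8-fold in GFPhi. Of the 166 genes at least 10-fold higher in both libraries, 73 were on the cell cycle and DNA damage lists. Those named outside the lists were of the same kind where their role is known: Kif20a, a cytokinesis kinesin (96.9-fold in GFPlo, 299.6-fold in GFPhi), Aspm of the spindle pole (98.9-fold and 93.6-fold), Sgo2a, a guardian of centromeric cohesion (99-fold and 80.6-fold), Cdca3 (78-fold and 125.5-fold), Depdc1a (140-fold and 129-fold) and Mxd3, a MAX-binding repressor (108-fold in GFPlo, at least 141.9-fold in GFPhi, where non-cycling cells had 0 UMIs). Jchain, the antibody joining chain, met the naming rule at 69.3-fold in GFPlo, but 98.6% of its 637 UMIs lay in 1 cell and the ratio was 1 without that cell.

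**Figure D3:**
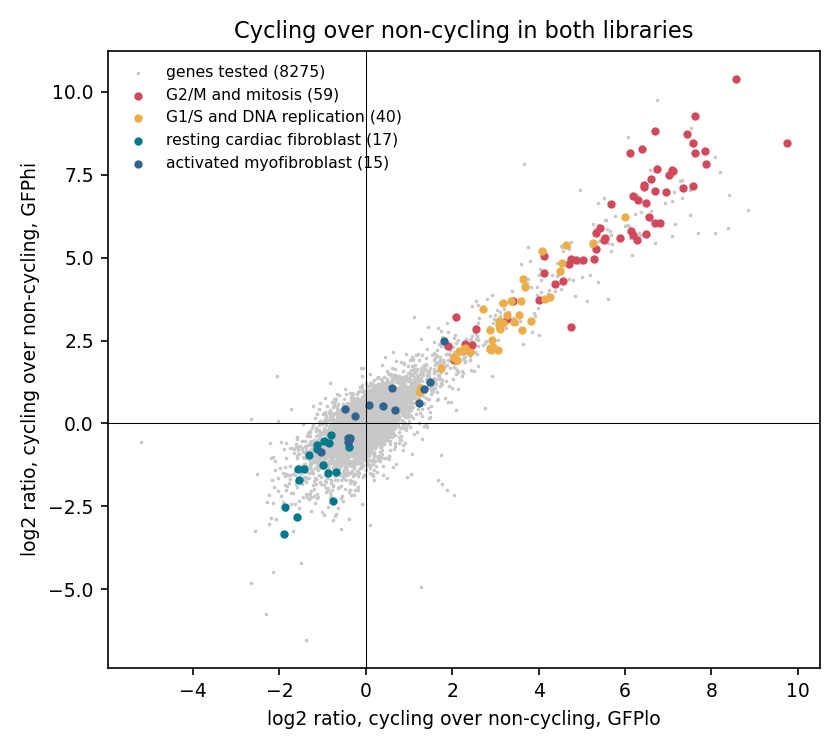
Log2 ratio of CPM, cycling over non-cycling fibroblasts, in GFPlo (x) and GFPhi (y) for the 8275 genes tested in both libraries (grey), with 4 gene lists coloured. The G2/M genes (59 points) lie highest on both axes, the G1/S genes (40) below them, the resting fibroblast genes (17) below 0, and the myofibroblast genes (15) on both sides of 0.

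Among regulators of the cycle, the inhibitors did not move one way. Cdkn2a (chr4:89274471-89294653, minus strand), the locus that encodes p16 and p19ARF and from which the Cre of these mice is expressed, was higher in cycling cells of both libraries. It stood at 10.8 against 3.5 CPM in GFPlo (55 and 180 UMIs), a 3.09-fold ratio (2.24 to 4.20), and at 26.5 against 7.56 CPM in GFPhi (24 and 36 UMIs), a 3.50-fold ratio (2.00 to 6.04). Counts at the 3′ end do not separate p16 from p19ARF, since both transcripts share it. After thinning to 3000 UMIs a Cdkn2a UMI was found in 2.88% of cycling and 0.537% of non-cycling GFPlo fibroblasts, and in 14.8% (4 of 27) and 1.94% in GFPhi. Unthinned, the shares were 14.2% and 2.45% in GFPlo and 37% and 8.03% in GFPhi. Collagen-poor cells (median 5141 UMIs in GFPlo and 7438 in GFPhi) are other cells of the library with RNA of their own. They had a Cdkn2a UMI in 1.14% after thinning in GFPlo and 0.229% in GFPhi, so the GFPlo non-cycling share was not above theirs. In the GFPhi window of 5000 to 20000 UMIs the 6 cycling cells had no Cdkn2a UMI, and 29.2% of the 24 GFPhi UMIs came from 1 cell. The ratio in GFPhi over GFPlo was 2.44 in cycling cells. Cycling macrophages of GFPhi also had more Cdkn2a than non-cycling ones, 4.76-fold on 32 UMIs, and mesothelial cells 2.11-fold in GFPlo. The mesothelial ratio in GFPhi was 2.20 on 10 cycling UMIs, with an interval (0.93 to 4.80) that includes 1.

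Other members of the INK4 family, which block CDK4 and CDK6, differed. Cdkn2c (p18) was 1.86-fold higher in GFPlo and 2.65-fold in GFPhi, and Cdkn2d (p19INK4D) 5.74-fold, at 94.4 against 16.4 CPM, and 4.46-fold. Cdkn2b (p15) had ratios of 0.976 and 0.986. In the CIP/KIP family, which binds cyclin-kinase pairs more widely, Cdkn1a (p21) was at 136.8 CPM in cycling and 387.9 CPM in non-cycling GFPhi cells, a ratio of 0.353, and at 103.2 against 143 CPM in GFPlo, a ratio of 0.722 within the 1.5-fold limit. After thinning, its detection per cell went the other way from the sum in GFPlo and the same way in GFPhi. Cdkn1a then had a UMI in 19.4% of cycling and 13.1% of non-cycling GFPlo cells and in 22.2% and 34.5% in GFPhi. In collagen-poor cells the shares were 19.6% and 66.2%, so neither library's cycling share was above theirs. Those cells are no measure of free RNA for this gene: GFPhi macrophages held Cdkn1a at 718.9 CPM when non-cycling and 493.7 CPM when cycling. Unthinned, the shares of fibroblasts with a Cdkn1a UMI were 47.7% and 20.2% in GFPlo and 74.1% and 47.8% in GFPhi, against 26.4% and 82.6% of collagen-poor cells. At 5000 to 20000 UMIs the GFPlo ratio was 1.07. Cdkn1c (p57) was lower in both libraries, at ratios of 0.374 in GFPlo and 0.520 in GFPhi, the second on 10 cycling UMIs, and the GFPhi ratio was 2.11, with an interval that includes 1, without cells carrying RNA of other types. Cdkn1b (p27) had ratios of 0.702 and 1.01. Within the cycling cells Cdkn1a and Cdkn2c were higher on the G2/M side in both libraries. In GFPlo Cdkn1a was at 114.4 CPM there and 44.8 CPM on the G1/S side, and Cdkn2c at 91.9 and 31.6 CPM. In GFPhi the G1/S side was 5 cells with 6 UMIs of Cdkn1a and 2 of Cdkn2c. Of the Cdkn1a UMIs in GFPhi cycling cells, 32.3% lay in 1 cell. Macrophages of GFPhi and mesothelial cells of both libraries showed the same directions for Cdkn2c and Cdkn2d, with Cdkn2d 6.87-fold higher in cycling GFPhi macrophages and 5.66-fold in cycling GFPlo mesothelial cells. Of the p53 target genes none was past 1.5-fold upward in either library, 2 of 11 were lower in GFPlo and 6 of 13 in GFPhi, beside backgrounds of 11.3% and 14.5%. Among G1 cyclins, kinases and phosphatases 6 of 15 were higher and 0 lower in GFPlo, and 7 of 14 were higher and 2 lower in GFPhi. The backgrounds of higher genes were 15.5% and 18.8%. Ccnd1 had ratios of 1.49 and 1.62, with 35.5% of its UMIs in GFPhi cycling cells in 1 cell. The GFPhi direction of Ccnd1 turned at a collagen minimum of 200 per 10000, to a log2 ratio of -0.24. Counts of the reporter feature mGFP were at 20.5 CPM in cycling and 24 CPM in non-cycling GFPlo cells and at 26.5 and 26 CPM in GFPhi, which are ratios of 0.853 and 1.02. Which stretch of the reporter this feature covers is not given, so its counts are not read as reporter protein. In cycling cells the GFPhi over GFPlo ratio of mGFP was 1.29 (0.79 to 2.03), an interval that includes 1.

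Genes of resting fibroblasts were lower in cycling cells of both libraries. Of the 17 measured members of the resting cardiac fibroblast list, 16 were lower in GFPlo and 15 in GFPhi, beside backgrounds of 11.3% and 14.5%, with median log2 ratios of -1.12 and -1.36. Gsn, the actin-severing protein gelsolin, was at 714.8 CPM in cycling and 2069.6 CPM in non-cycling GFPlo cells (ratio 0.345) and at 295.7 and 968.3 CPM in GFPhi (0.305). Dcn was at 3050.2 against 6636 CPM in GFPlo (0.46) and 2905 against 4939 CPM in GFPhi (0.588). Tcf21, the transcription factor of the epicardial fibroblast lineage, was at 128 against 320.3 CPM in GFPlo (0.399) and 139 against 270.4 CPM in GFPhi (0.514). With the cells of the full rule thinned to 3000 UMIs, a Tcf21 UMI was found in 27.7% of cycling and 53.3% of non-cycling GFPlo cells. In GFPhi these shares did not differ, at 48.15% (13 of 27) and 48.45%. Mgp, an inhibitor of calcification, had ratios of 0.543 and 0.352, and Ogn, the proteoglycan osteoglycin, 0.372 and 0.388. The receptor Pdgfra was within the limit in GFPlo, at a ratio of 0.768, and lower in GFPhi at 0.600. After thinning to 3000 UMIs, with cells called again at 1 UMI or more against 0, the median of the resting list was -0.53 in GFPlo and -0.82 in GFPhi. Between 5000 and 20000 UMIs it was -0.84 and -0.55. The thinned sets (360 and 5564 cells in GFPlo) take in cells that the full rule left aside. The GFPlo G2/M median was 5.50 in them against 6.19, so depth and the new call cannot be told apart. The resting list medians were nearer to 0 in both alternatives and still negative. Single genes in the 6 GFPhi cells of the window were not lower: Dcn had a ratio of 1.01 there and Pdgfra 1.39.

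The progenitor-like and scar lists leaned the same way. Of 13 progenitor-like genes 9 were lower in GFPlo and 10 in GFPhi, with medians of -0.65 and -1.13. Over all genes 11.3% were lower in GFPlo and 14.5% in GFPhi. Pi16, a peptidase inhibitor that marks adventitial progenitor-like fibroblasts, was at 198.4 against 611.2 CPM in GFPlo (0.325) and at 109.2 against 365.4 CPM in GFPhi (0.299). At 5000 to 20000 UMIs the list median was -0.56 in GFPlo and turned to 0.26 in GFPhi, where Pi16 had a ratio of 0.755. After thinning, 4.05% of the GFPlo fibroblasts with a Pi16 UMI and 8.52% of those without one were cycling, and in GFPhi 3.94% and 12.4%. Of the scar matrix genes 6 of 9 were lower in GFPlo and 7 of 10 in GFPhi, with medians of -0.74 and -0.87. Comp, the cartilage oligomeric matrix protein of tendon-like scar cells, was at 171.2 against 473.2 CPM in GFPlo (0.362) and 242.7 against 411.6 CPM in GFPhi (0.590). The GFPhi ratio of Comp turned to 1.56 (1.23 to 1.96) in the window and to 1.11 in the thinned sets, which were called again. The GFPlo ratio was 0.54 in the window. Thbs4, a thrombospondin of the same cells, had ratios of 1.19 and 1.27. Mfap4, a microfibril protein, was at ratios of 0.335 and 0.411 and Lum, the proteoglycan lumican, at 0.462 and 0.647.

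Summed over cells, contractile genes and Tnc were higher in cycling cells of both libraries, and other members of the myofibroblast list were not. Acta2 (chr19:34241090-34255590, minus strand), smooth muscle actin, was at 2364 CPM in cycling and 839.8 CPM in non-cycling GFPlo cells, a ratio of 2.81 (2.76 to 2.87), and at 2055 and 870.3 CPM in GFPhi, a ratio of 2.36 (2.24 to 2.50). Per cell, the GFPlo median was 10.5 per 10000 UMIs in cycling and 1.21 in non-cycling cells, with quartiles of 2.38 to 31.1 and 0 to 4.77 that overlap. In GFPhi the medians were 7.4 and 0.999. A UMI of Acta2 was found after thinning in 74.1% of cycling and 42.6% of non-cycling GFPlo cells and in 77.8% and 40.3% in GFPhi. Unthinned, those shares were 87.5% and 58.4% in GFPlo and 96.3% and 65.3% in GFPhi, and collagen-poor cells had 13.7% and 4.07%. At 5000 to 20000 UMIs the GFPlo ratio was 1.89, and without cells carrying RNA of other types it was 2.42 in GFPlo and 1.69 in GFPhi. The 6 GFPhi cycling cells of that depth window had less Acta2 than the non-cycling ones, at 0.41. Pericytes and smooth muscle also express Acta2, and a mural list without it had a median of 0.408 per 10000 in cycling and 0 in non-cycling GFPlo cells. Without cells that carried endothelial, mural, lymphocyte or antibody genes the Acta2 ratio was 2.93 in GFPlo and 2.47 in GFPhi. Cnn1 (calponin), Tpm2 (a tropomyosin) and Tagln (transgelin), all actin-binding contractile proteins, were 3.49-fold, 2.56-fold and 1.53-fold higher in GFPlo and 5.57-fold, 2.06-fold and 2.08-fold in GFPhi. Per cell, the Cnn1 median was 0 in every set, and its upper quartile was 0 in GFPlo cycling cells, so its sums lean on few cells. The Tagln medians were 7.1 per 10000 in cycling and 2.39 in non-cycling GFPlo cells, and 3.9 and 3.16 in GFPhi. Tnc, the injury matrix protein tenascin C, was 2.36-fold and 1.54-fold higher. After thinning, a Tnc UMI was found in 33.8% of cycling and 14.5% of non-cycling GFPlo cells. In GFPhi the order was opposite, at 14.8% (4 of 27) and 18.6%. In the 6 GFPhi cells of 5000 to 20000 UMIs these genes turned as well, with ratios of 0.312 for Tagln and 0.472 for Tpm2 and 0 UMIs of Cnn1 and Tnc. In the GFPlo window Cnn1, Tnc and Tpm2 had ratios of 3.02, 2.16 and 1.99, and Tagln 1.32, within the limit. Postn (periostin), however, had ratios of 0.756 and 0.684, and Cthrc1, the collagen triple helix repeat protein of activated scar fibroblasts, 0.761 and 0.707. Over the whole list 6 of 15 were higher and 1 lower in GFPlo, and 5 higher and 1 lower in GFPhi, with medians of 0.08 and 0.43 close to that of all genes in GFPlo. The backgrounds of higher genes were 15.5% and 18.8%. Between the phases Acta2 was at 2006 CPM on the G1/S side and 2415 CPM on the G2/M side in GFPlo, and at 3401 CPM (5 cells) and 1753 CPM (22 cells) in GFPhi.

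**Figure D4:**
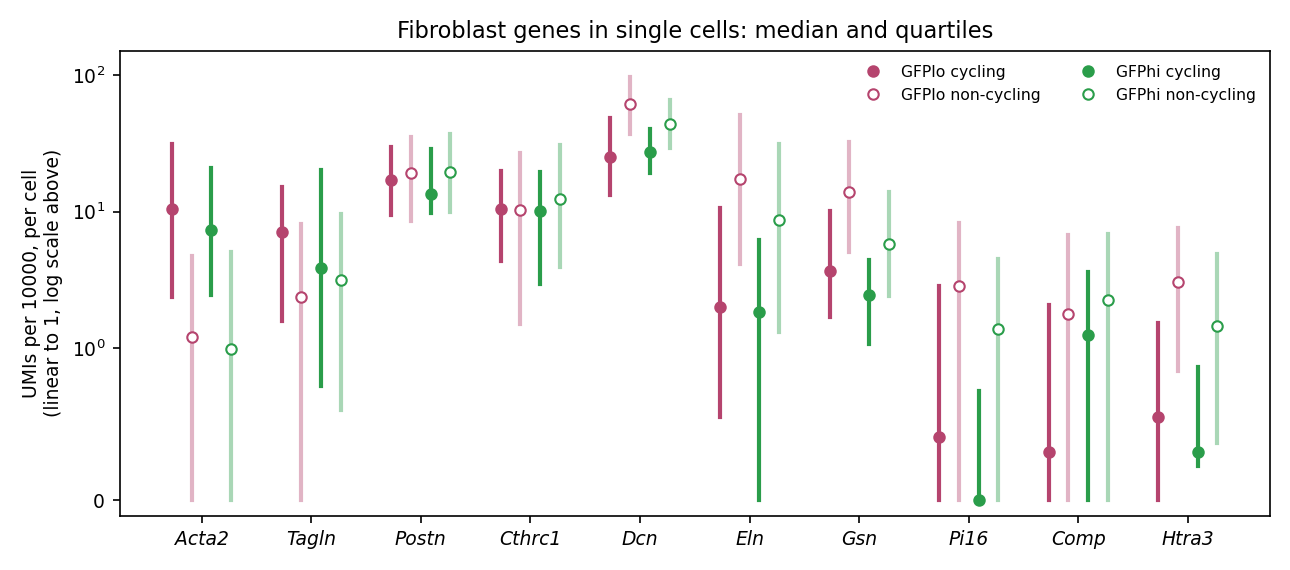
UMIs per 10000 in single fibroblasts for 10 genes, as the median (point) and quartiles (line) of cycling (filled) and non-cycling (open) cells of GFPlo (red) and GFPhi (green); the axis is linear to 1 and logarithmic above. Acta2 is higher in cycling cells of both libraries (GFPlo median 10.5 against 1.21), Eln, Gsn and Dcn are lower (Eln in GFPlo 2.00 against 17.3), and Postn differs little.

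Elastic and secreted proteins made up most of the named lower genes. Eln (chr5:134702593-134747323, minus strand), tropoelastin, was the most abundant of them, at 1007 CPM in cycling and 3808 CPM in non-cycling GFPlo cells, a ratio of 0.264 (0.257 to 0.272), and at 506.4 and 2598 CPM in GFPhi, a ratio of 0.195 (0.177 to 0.214). Fbln1 and Fbln5, fibulins of elastic fibres, had ratios of 0.279 and 0.505 in GFPlo and 0.349 and 0.439 in GFPhi. Htra3, a secreted serine protease, was at 141.3 against 512.6 CPM in GFPlo (0.276) and 68.4 against 391 CPM in GFPhi (0.175). Angptl7, an angiopoietin-like secreted factor, was at 26.8 against 130.7 CPM in GFPlo (0.205) and 16.6 against 87.5 CPM in GFPhi (0.189). Cytl1, a small cytokine-like protein, had a ratio of 0.201 in GFPlo and no UMI in GFPhi cycling cells, at least 8.82-fold lower there. Apoe, which macrophages also express strongly, had ratios of 0.276 and 0.333. Further named lower genes were Clec3b, Fgl2, Crispld2, Slfn5, Pcsk5, Stc2, Sema3c and Smpdl3a, with GFPlo ratios from 0.210 (Pcsk5) to 0.251 (Smpdl3a). In the sets thinned to 3000 UMIs and called again at 1 UMI or more, the GFPlo ratios were nearer to 1. They were 0.51 for Eln, 0.45 for Htra3 and 0.41 for Angptl7, and both depth and the call of cells differ there. In the window of 5000 to 20000 UMIs the ratios were 0.30, 0.33 and 0.15.

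The collagens and their processing enzymes were close to even between the sets. Col1a1, Col1a2 and Col3a1, which the rule used, had ratios of 1.08, 0.979 and 0.817 in GFPlo and 1.07, 1.08 and 0.847 in GFPhi. Of 15 other collagen genes 1 was higher and 1 lower in GFPlo, and 1 higher and 4 lower in GFPhi, with medians of -0.29 and -0.44. All genes had 15.5% higher and 11.3% lower in GFPlo, and 18.8% and 14.5% in GFPhi. Col14a1, a fibril-associated collagen, was lower in both libraries, at ratios of 0.619 in GFPlo and 0.568 in GFPhi. Of 18 genes for collagen folding and crosslinking none was past 1.5-fold in GFPlo and 1 was lower in GFPhi. Fn1, fibronectin, had ratios of 1.08 and 0.908, and Sparc, a collagen-binding matricellular protein, 0.688 and 0.687. Of 15 proteoglycans and glycoproteins 5 were lower in GFPlo and 6 in GFPhi.

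Secreted signals were mostly lower, with a few exceptions. Of 20 growth factors and Wnt inhibitors 13 were lower and 2 higher in GFPlo, and 12 lower and 2 higher in GFPhi, with medians of -0.77 and -0.71. The backgrounds of lower genes were 11.3% and 14.5%, and those of higher genes 15.5% and 18.8%. Sfrp2 and Frzb, secreted frizzled-related inhibitors of Wnt, had ratios of 0.345 and 0.404 in GFPlo and 0.297 and 0.317 in GFPhi. Igf1, insulin-like growth factor 1, had ratios of 0.478 and 0.547, and Igfbp4, a binding protein that restrains it, 0.41 and 0.404. The 2 exceptions were Hgf, hepatocyte growth factor, at 2.90-fold and 2.01-fold, and Spp1, osteopontin, at 2.03-fold and 2.41-fold. The GFPhi direction of Spp1 turned without cells carrying RNA of other types, to a ratio of 0.621, and in the depth window, to 0.168 on 1 cycling UMI. After thinning, Hgf had 7 cycling UMIs in GFPlo and a ratio within the 1.5-fold limit. Growth factor receptors scarcely differed: none of 16 was higher in either library, 1 was lower in GFPlo and 3 in GFPhi.

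Chemokines were split. Of 13 measured chemokines and cytokines in GFPlo 4 were higher and 3 lower, and of 14 in GFPhi 6 were higher and 2 lower, with medians of -0.07 and 0.19. The backgrounds were 15.5% higher and 11.3% lower in GFPlo, and 18.8% and 14.5% in GFPhi. Ccl2, which draws monocytes, was at 273 against 123 CPM in GFPlo (2.22-fold) and 450.1 against 133.5 CPM in GFPhi (3.37-fold). Per cell, its median was 0 in both GFPlo sets, and 0.518 per 10000 in cycling and 0 in non-cycling GFPhi cells. The highest cycling cell had 118.7 per 10000 in GFPlo and 36.5 in GFPhi, so the sums lean on few cells. Ccl7, a ligand of the same receptor, was 2.06-fold and 2.17-fold higher, and Cxcl12, which holds CXCR4-bearing cells, 1.58-fold and 1.55-fold. Il6 was at a ratio of 0.479 in GFPlo and 0.837 in GFPhi. Ccl8, the chemokine of the series title, was scarce. It stood at 8.67 against 2.82 CPM in GFPlo, on 44 UMIs in 4.27% of the cycling cells with 18.2% of them in 1 cell, and at 21 against 18.9 CPM in GFPhi, where 63.2% of the UMIs were in 1 cell. In the GFPlo window of 5000 to 20000 UMIs the cycling cells had 1 Ccl8 UMI and the ratio was 0.19. Without cells carrying RNA of other types, the GFPhi ratios of Ccl2 and Ccl8 were 2.16 and 0.445. Of 12 interferon response and MHC class I genes 1 was higher and 2 lower in GFPlo, and 3 higher and 2 lower in GFPhi.

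Genes of nucleotide synthesis and glycolysis were higher. Of 17 nucleotide and one-carbon synthesis genes 14 were higher in GFPlo, and of 16 in GFPhi 9 were, with medians of 0.86 and 0.70. Dut, which keeps uracil out of DNA, was 4.37-fold and 3.64-fold higher, Psat1, of serine synthesis, 3.82-fold and 4.82-fold, and Mthfd2, of the mitochondrial folate cycle, 3.21-fold and 1.64-fold. Of 15 glycolysis genes 10 were higher in GFPlo and 8 in GFPhi, with medians of 0.79 and 0.65. Pgk1 was 2.12-fold higher in both libraries and Tpi1 1.98-fold and 1.68-fold, both enzymes of the lower glycolytic pathway. Oxidative phosphorylation stood near or below the background of all genes (15.5% and 18.8%), with 3 of 18 genes higher in GFPlo and 1 in GFPhi, and Cycs, cytochrome c, was the leading one at 2.24-fold and 2.02-fold. The immediate early genes that tissue dissociation induces were lower, 12 of 13 in GFPlo and 5 of 13 in GFPhi, with medians of -0.76 and -0.48. The backgrounds of lower genes were 11.3% and 14.5%. Dusp1, a phosphatase of that response, had ratios of 0.41 and 0.649, and Fos 0.555 and 0.931. In the GFPlo window of 5000 to 20000 UMIs the medians were 0.87 for nucleotide synthesis, 0.39 for glycolysis and -0.73 for the dissociation genes.

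**Figure D5:**
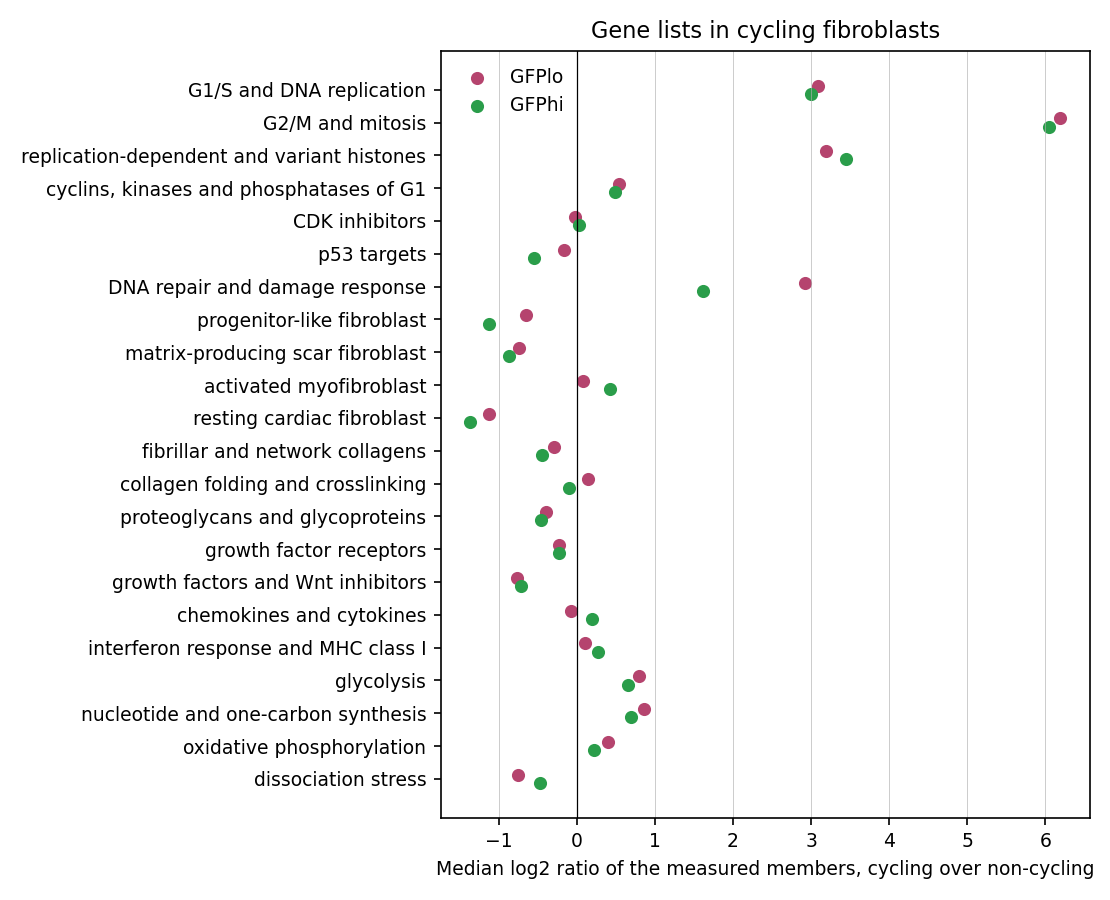
Median log2 ratio of CPM, cycling over non-cycling fibroblasts, over the measured members of the gene lists in GFPlo (red) and GFPhi (green), without the marker lists of other cell types; genes used by the rule are in no median and 0 marks equal levels. The G2/M list leads at 6.19 and 6.04, the resting fibroblast list is the lowest of those drawn at -1.12 and -1.36, and the collagen lists lie between -0.44 and 0.15.

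Between the cycling fibroblasts of the 2 libraries, macrophage transcripts differed most among the lists and the cell cycle lists little. Of 8584 genes 544 were higher (6.34%) and 937 lower (10.9%) in GFPhi than in GFPlo cycling cells, with a median log2 ratio of -0.07. In non-cycling fibroblasts, which hold far more UMIs, 173 of 8201 were higher (2.11%) and 224 lower (2.73%), with a median of -0.09. In the cell cycle, 5 of 61 G2/M genes were higher in GFPhi and none lower (median 0.08), 1 of 42 G1/S genes was lower and none higher (median -0.20), and 4 of 15 repair genes were lower. Of the macrophage list 10 of 11 were higher in GFPhi cycling cells, with a median of 5.38 (5.34 with the gene at 0 in GFPlo at its limit), and 9 of 10 in non-cycling cells, with a median of 4.02. Lyz2, the macrophage lysozyme, was at 349.7 CPM in GFPhi and 2.17 CPM in GFPlo cycling cells (161-fold) and was detected in 92.6% of the GFPhi cells; in non-cycling cells it was at 319.3 and 14.3 CPM. Fcer1g and Tyrobp, adaptors of myeloid receptors, were 120-fold and 69.7-fold higher, and Ctss, a lysosomal protease, 35.6-fold. Ms4a7 had 86.1 CPM in GFPhi and 0 UMIs in GFPlo, at least 145.6-fold higher, but 88.5% of it was in 1 cell. Wfdc17, Cd68, Ccl4, Trem2 and Lgals3 completed the named higher genes, from 91.5-fold (Wfdc17) to 13.1-fold (Lgals3). A single GFPhi cell also held a large part of the UMIs of the other genes named, from 28.7% for Lyz2 to 58% for Cd68.

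The genes named as lower in GFPhi included several that came from single cells. Ighm, an antibody heavy chain, was at 328 CPM in GFPlo and 2.21 CPM in GFPhi, but 98.8% of it was in 1 GFPlo cell. Rgs5, a pericyte gene, was at 68.8 against 3.31 CPM and Ccl21a, a lymphatic chemokine, at 72.9 against 5.52 CPM, with 25.5% and 60.5% of the GFPlo UMIs in 1 cell. At a collagen minimum of 200 per 10000 the direction of Ccl21a turned, to a log2 ratio of 0.44. Without GFPlo cells that carried endothelial, mural, lymphocyte or antibody genes, the cycling over non-cycling ratio of Rgs5 in GFPlo went from 4.15 to 0.76. Clu, the secreted chaperone clusterin, was spread more widely, at 169 against 32 CPM (0.189). Gsn was at 714.8 against 295.7 CPM (0.414), and it was lower in non-cycling GFPhi cells too. Of the resting fibroblast list 1 gene was higher and 5 lower of 16, with a median of -0.37, and of the 15 collagens 1 was higher and 3 lower. Over all genes 6.34% were higher and 10.9% lower. Of 14 chemokines and cytokines 6 were higher in GFPhi and 1 lower, and of 12 interferon response and MHC class I genes 5 were higher, with a median of 0.42. Over the alternatives the interferon and MHC median ran from -0.13 to 0.51. In non-cycling cells 4 of 14 chemokines and cytokines were higher in GFPhi and 1 lower. There 2 of 12 interferon and MHC genes were higher and 0 lower, with a median of 0.19. The backgrounds there were 2.11% higher and 2.73% lower. All of the comparisons between cycling cells rest on 27 GFPhi cells with 906406 UMIs in all, against 281 GFPlo cells with 5075488.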

How the data were processed

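Single-cell RNA counts (UMIs per gene and cell barcode, mm10 per the submitters' processing notes) were used as the authors deposited them, 1 matrix per library. The extraction protocol in the labels names a SeekOne 3′ kit and another label names 10x Genomics; no aligner, counter or cell caller is named (not given in the sources used here). Cells with at least 300 genes and 500 UMIs and at most 20% mitochondrial UMIs were kept, 22084 in all. No doublet caller was run; alternatives left out the deepest cells and cells with RNA of other types instead.

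UMIs were summed over the cycling and the non-cycling fibroblasts of each library, scaled to counts per 1000000 (CPM) and divided, after adding 0.5 counts for the log2 scale. A gene was tested at 10 CPM or more in either set and called past 1.5-fold. Intervals are 95%, Clopper-Pearson for shares and exact conditional for ratios. A fold against 0 UMIs is given against a floor of 3 counts over the group. Shares of cells with a UMI were also taken after thinning each cell to 3000 UMIs, in the sets of the full rule. Ratios and cycling shares after thinning used sets called again, at 1 UMI or more of the 3 genes against 0.

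The cells, the 31 gene lists (490 members, 4 not found by symbol) and the tests were chosen with earlier results of these data known. Named genes were a fixed set of regulators and markers, the 15 largest ratios each way in GFPlo (by the nearer interval bound, at 50 CPM or more and 20 UMIs or more, past 1.5-fold the same way in both libraries), the next 10 higher ones outside the cell cycle lists, the 10 each way between libraries, and leading examples of each list; other list members named (such as Thbs4, Fn1, Tcf21 and Pcna) were chosen after their values were seen. For 40 repeated symbols the first row was used. Coordinates are from GENCODE vM21 and promoters from RefSeq (GRCm38.p6). The scripts were tested on simulated data. Python 3.11.15, numpy 2.4.6, scipy 1.17.1, pandas 2.3.3 and matplotlib 3.10.9 were used, and 17 alternatives were run, 2 of them added after the data were seen. Some results that these rules would name are not reported here.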

Additional observations from a re-analysis of the deposited data

Results flagged for a closer look

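A few genes had opposite directions in the 2 libraries under the same comparison, with 1 library each, so the difference was not tested. The log2 ratio of cycling over non-cycling fibroblasts was 0.85 in GFPhi and -1.44 in GFPlo for Fcer1g, a myeloid receptor adaptor. It was -2.17 in GFPhi and 2.05 in GFPlo for Rgs5, a pericyte gene whose GFPlo counts came partly from a few cells with mural RNA. Csmd1, a membrane protein with complement control repeats, had -1.81 in GFPhi and 1.76 in GFPlo. Rhox5, a homeobox gene, had -0.91 in GFPhi and 1.08 in GFPlo, with 87.5% of the GFPhi cycling UMIs in 1 cell. Csmd1 also turned between the sets when the libraries were compared: the log2 ratio of GFPhi over GFPlo was -2.10 in cycling and 1.48 in non-cycling fibroblasts.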

How the results depend on the processing

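No paired analysis was possible because there was 1 library per group and no replicate number links them. Of the recomputed values 3142 stayed within the set limits of change, 591 were counted as moved and 22 as turned. Some values not counted as turned also changed sign. The activated myofibroblast list in GFPhi, counted as moved, had a median of 0.43 in the main setting and -0.997 in the window. The p53 target list in GFPlo, within the limits, had -0.17 in the main setting and 0.07 thinned. The share of cycling fibroblasts in GFPlo was 5.56% at 2 or more UMIs, 3.77% at 5 or more, 3.94% at 3 or more per 10000, 6.08% thinned, 3.34% at 5000 to 20000 UMIs, 3.74% with no mesothelial gene, 2.98% without the deepest 5% of cells and 5.77% without cells carrying other-type RNA. In GFPhi it was 3.32% in the depth window and 12.9% without other-type RNA, and the ratio of the shares in the window was 0.994. Leaving out other-type RNA removed a larger part of the non-cycling than of the cycling cells, which raises the share. Genes lower in both libraries numbered 244 thinned, 292 in the window, 232 at 50 CPM or more and 1059 at 1 CPM or more, and genes higher in both 362 and 1473 at those CPM limits, which change how many genes are tested. Between libraries in cycling cells, higher genes numbered 3679 thinned, 3965 in the window, 1052 at a collagen minimum of 200, 1034 with no mesothelial gene, 82 and 2751 at 50 and 1 CPM and 843 as a mean over cells; lower genes numbered 1994, 1926, 1422 (collagen), 1663 without the deepest cells, 109 and 2380. The thinned and window counts come from few GFPhi UMIs (6 cells in the window). These log2 ratios were counted as turned, and the cause was not tested. Ccl8, GFPhi over GFPlo: -0.18 at 5 or more UMIs and -1.03 at 3 or more per 10000. Thinned: Comp in GFPhi 0.16, Tshz2 between libraries 0.87. In the window, cycling over non-cycling in GFPhi: Cdkn2a -0.19, Cdkn1c 0.060, Comp 0.65, Acta2 -1.25, Pdgfra 0.52, Slfn5 0.98, Sema3c 0.19 and the progenitor-like list 0.26; in GFPlo Ccl8 -1.85; between libraries Cdkn2a -0.66, Pi16 0.49, Csmd1 0.63 and Cst6 0.059. At a collagen minimum of 200: Ccnd1 in GFPhi -0.24, Ccl21a between libraries 0.44. Without the deepest cells: Ccnd1 in GFPhi -0.015, Ccl8 in GFPlo -1.83. Without other-type RNA: Cdkn1c in GFPhi 1.11.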
